A study of Homo sapiens with 4 samples.

Results

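The genes of 4 families of pre-mRNA splicing factors were followed in the human cell line NUDUL1, which was derived from a diffuse large B cell lymphoma (DLBCL) of the germinal center B cell type. The members were the genes of the deposited table whose symbol begins with HNRNP, SNRP, SRSF, SFRS, SF3A or SF3B (the SRSF and SFRS symbols with a number) and whose value was above 0 in at least 2 of the 4 libraries. This gave 60 of the 25066 genes listed and of the 16945 genes above 0 in at least 2 libraries, which are the genes tested. They were 21 hnRNP genes, 19 SR and SFRS-named genes, 11 SNRP genes and 9 SF3A and SF3B genes. Several SR genes were listed under older symbols and are given here by their current ones, so SRSF8 was listed as SFRS2B, PNISR as SFRS18 and SF3B6 as SF3B14. The rule passes over a few relatives with other symbols, among them TRA2B, and SRSF10, which was listed as FUSIP1.

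Both groups carried Cas9 under doxycycline control and had been transduced with the receptor Tbxa2r, which couples to Gα13, and both were treated with 10 nM U46619, a thromboxane-A2 mimetic, for 24 h. One group of 2 libraries expressed a control sgRNA and the other group of 2 libraries expressed an sgRNA to GNA13, the gene of Gα13. The Cas9 cells were grown from single-cell clones, a single sgRNA was used per genotype and the treatments were made in duplicate, so the p values measure the spread between such duplicates and not between clones or guides. Untreated cells were not part of the comparison, so each difference is one between genotypes under U46619.

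Splicing removes introns from pre-mRNA in steps carried out by small nuclear ribonucleoproteins, the snRNPs. In each of the U1, U2, U4 and U5 snRNPs a ring of Sm proteins encoded by SNRP genes surrounds the RNA, and the SF3A and SF3B complexes join the U2 snRNP where it pairs with the branch point. SR proteins bind exons and mostly favor their inclusion, hnRNPs coat nascent RNA and often act in the opposite way, and the balance of both decides much of alternative splicing. Dividing cells, germinal center B cells among them, depend on all 4 families to process their new transcripts.

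Mapped reads ran from 29209544 to 31537955 per library, and the values are log2 of reads scaled by a constant per library, with 0 as the lowest value listed. The number of genes listed at 0 ran from 7946 to 9309 and was highest in control replicate 2. GNA13 mRNA had log2 levels of 12.46 and 12.45 in the controls, against 13.10 and 13.11 in the other group, and so differed by 0.65 (SE 0.05, limma adjusted p = 0.00214). The targeted mRNA was therefore not lower in its labelled libraries, and every direction given here rests on the labels. All 10 B cell markers were detected, and their summed linear level was 80520 and 83739 in the controls, against 78009 and 81265 in those labelled GNA13-deficient. BCL6 and MS4A1 were lower among them, by differences of -2.49 and -0.57. Among markers of other cells, CD3D and CD3E were listed at 0 in all 4 libraries. The summed T cell markers, nearly all from CD247, were 24.4 and 18.7 against 9.23 and 1.08. The summed monocyte markers were 136 and 138 against 67.7 and 53.8, and the summed epithelial and fibroblast markers were 45.8 and 49.2 against 107 and 113. The part of these small sums in the results was not tested.

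Splicing factor mRNAs were more often higher than lower in the libraries labelled GNA13-deficient. Of the 60 members, 23 rose (38.3%), 3 fell (5%) and 34 did not pass the threshold, an adjusted p under 0.05 from limma over all genes tested. Among all genes tested the corresponding shares were 13.1% higher and 16.6% lower. These genes are abundant, however, and among the 5282 genes with a mean log2 level of at least 10 the shares were 25% higher and 15.5% lower. The members thus had a larger share of higher calls and a smaller share of lower calls than either background, while no test was made of the family as a set. In bulk RNA, a change in the level per cell and a change in the mix of cells cannot be told apart.

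The size of the changes was moderate. The median log2 difference over the members was 0.21, against -0.02 over all genes tested and 0.06 over the genes with a mean level of at least 10, and the members ran from -0.47 for SRSF8 to 0.62 for SRSF4. The difference was above 0 for 50 of 60 members. The control and GNA13-deficient values did not overlap in 43 members that were higher (71.7%) and in 5 that were lower (8.33%). Among all genes tested the shares were 31.3% higher and 34% lower. Among genes with a mean level of at least 10 they were 44.7% higher and 30.1% lower. In terms of reads, the members together took 2.40% and 2.27% of mapped reads in the controls, against 2.69% and 2.59% in those labelled GNA13-deficient, a ratio of 1.13. These values depend on the scaling of the libraries: with quantile normalization the members' median was 0.13 and that of all genes 0.07, so the distance between them shrank to 0.06. With each library centred on its median, 43 members were higher and 1 lower, but 4311 of the 6235 calls over all genes were then higher too, against 2218 of 5037 with the deposited scaling, and the distance between the medians stayed at 0.24.

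**Figure D1:**
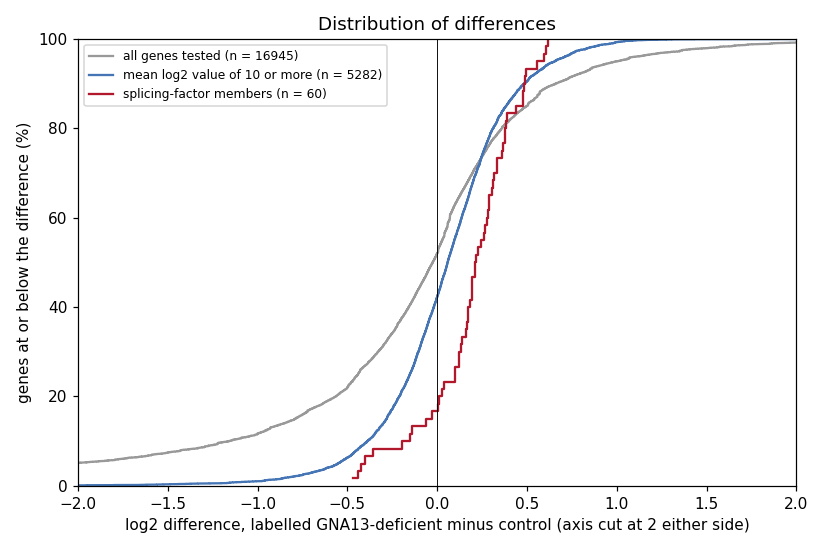
Percent of genes (vertical axis) at or below each log2 difference (horizontal axis, libraries labelled GNA13-deficient minus control) in the 60 members, in the genes with a mean log2 level of at least 10 and in all genes tested. The axis is cut at 2 on either side, and the members' curve, with its median of 0.21, lies to the right of the medians of the other sets, 0.06 and -0.02.

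**Figure D2:**
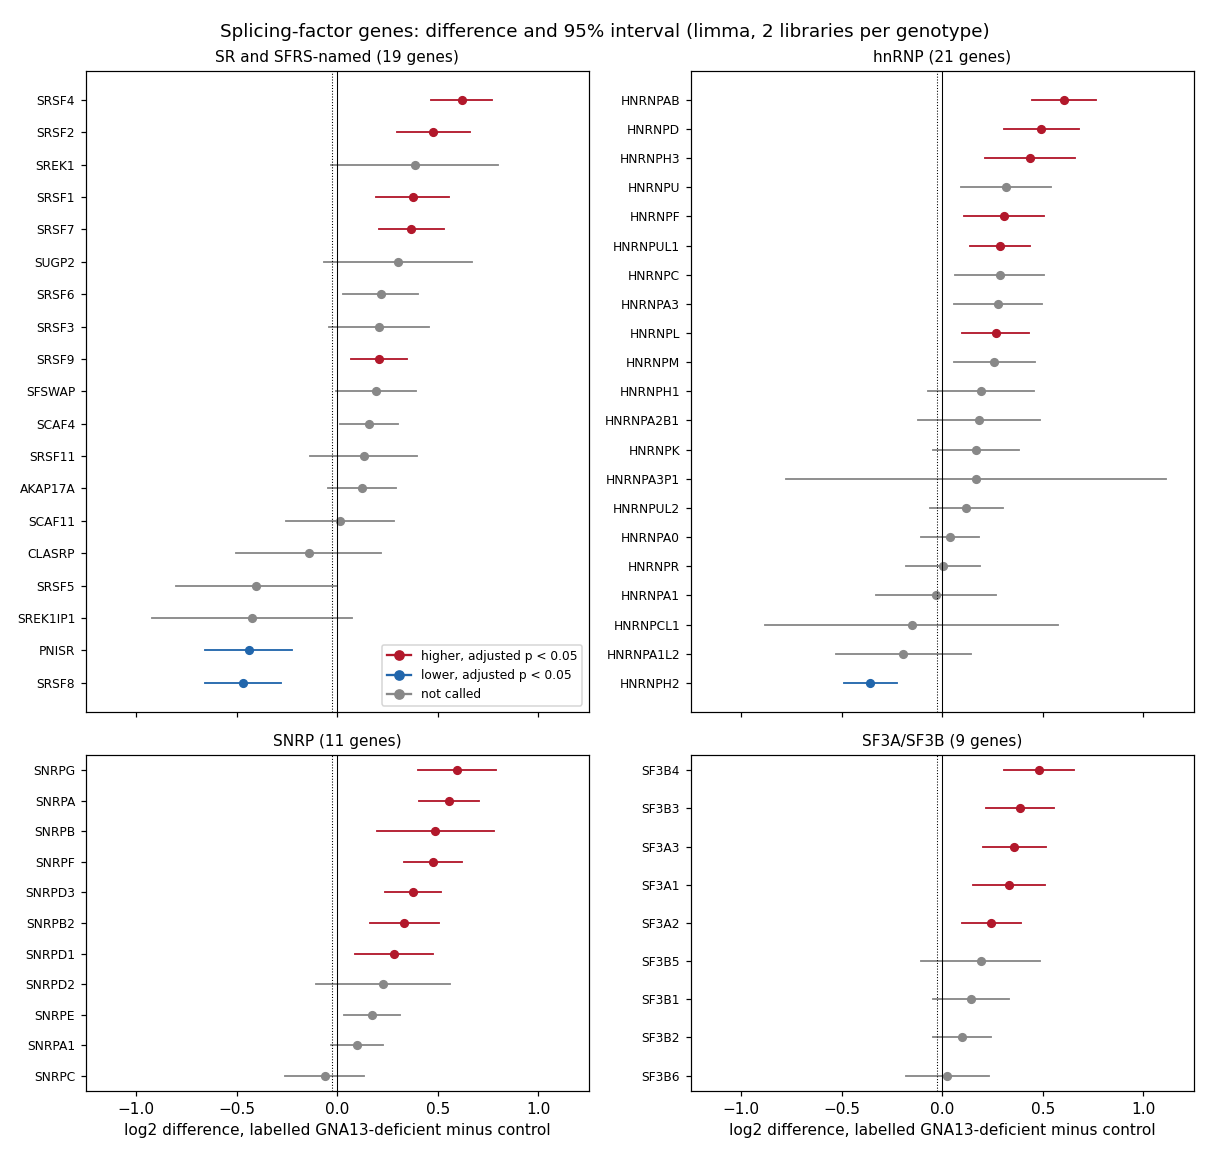
Log2 difference of each of the 60 members, by family, with its 95% confidence interval from limma as a bar and the median of all genes tested, -0.02, as a dotted line. Red points (23) passed the adjusted p threshold above 0, blue points (3) passed it below 0, and grey points did not pass.

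The SNRP genes had the highest median of the 4 families, 0.33, with 7 of 11 higher (63.6%), none lower and 10 differences above 0. Their share of mapped reads went from 0.162% and 0.165% to 0.194% and 0.211%, a ratio of 1.24. The 7 genes of the Sm ring had a median difference of 0.38 and 5 of them rose, and of the other 4 SNRP genes 2 rose. SNRPG, a small ring subunit (chromosome 2, 70508494 to 70520872, minus strand of GRCh37), had log2 levels of 11.21 and 11.14 in the controls, against 11.69 and 11.86. Both libraries labelled GNA13-deficient stood above both controls, by a difference of 0.60 (SE 0.08, adjusted p = 0.00641), a ratio of 1.51.

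SNRPB, which encodes the ring proteins B and B', had 13.24 and 13.39 against 13.67 and 13.93, a difference of 0.49 (SE 0.11, adjusted p = 0.032). Its standard error was the largest of the 5 called ring genes, and its groups did not overlap. SNRPF had 11.74 and 11.80 against 12.21 and 12.28, a difference of 0.48 (SE 0.06, adjusted p = 0.00522). SNRPD3 and SNRPD1, both subunits of the ring, rose by 0.38 and 0.28. SNRPD2 and SNRPE, the remaining ring genes, had differences of 0.23 and 0.17 with adjusted p values of 0.251 and 0.0735.

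The proteins particular to one snRNP divided. SNRPA encodes U1-A, which binds a stem loop of U1 RNA, and its log2 levels were 11.86 and 11.92 in the control libraries and 12.41 and 12.49 in the others. Its difference was 0.56 (SE 0.06, adjusted p = 0.00391). SNRPC, whose product U1-C helps U1 hold the 5' splice site, had 11.31 and 11.38 against 11.20 and 11.36, and its groups overlapped. The difference of SNRPC was -0.06, with a 95% interval from -0.26 to 0.14. Of the pair that bind U2 RNA together, SNRPB2 rose by 0.33 (adjusted p = 0.0213) and SNRPA1 had a difference of 0.10 (adjusted p = 0.21).

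The symbol SNRPN matched the rule but was listed at 0 in all 4 libraries, so it is not among the members. SNURF, which shares its transcripts, had log2 levels of 5.15 and 5.59 in the control libraries and of 5.68 and 5.66 in the others. Reads of one cannot be told from reads of the other where the exons are shared.

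All 9 SF3A and SF3B genes had differences above 0, and 5 of them rose (55.6%) and none fell, with a median of 0.24. The family's share of mapped reads went from 0.245% and 0.239% to 0.285% and 0.276%, a ratio of 1.16. The subunits of SF3A, the trimer that bridges SF3B and the rest of the U2 snRNP, all rose. SF3A3 had log2 levels of 13.11 and 13.13 against 13.44 and 13.52, a difference of 0.36 (SE 0.06, adjusted p = 0.0136). SF3A1 had 13.03 and 13.16 against 13.44 and 13.41, a difference of 0.33 (SE 0.07, adjusted p = 0.0241). SF3A2 rose by 0.24 (adjusted p = 0.0323). In each of the 3, the libraries labelled GNA13-deficient lay above the controls.

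Of the 6 SF3B genes, 2 rose. SF3B4, an RNA-binding subunit that contacts the pre-mRNA near the branch point (chromosome 1, 149895209 to 149899695, minus strand), had 12.21 and 12.35 against 12.74 and 12.77, a difference of 0.48 (SE 0.07, adjusted p = 0.00827). SF3B3, the large scaffold subunit, had 13.77 and 13.83 against 14.22 and 14.15, a difference of 0.39 (SE 0.07, adjusted p = 0.0138). SF3B1 encodes the subunit that clamps the branch point and is often mutated in blood cancers. Its levels were 14.11 and 13.99 against 14.21 and 14.18, which did not overlap but lay close together, and its difference of 0.14 had an interval from -0.05 to 0.33 (adjusted p = 0.218). SF3B5, SF3B2 and SF3B6 had differences of 0.19, 0.10 and 0.03 and did not pass the threshold.

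**Figure D3:**
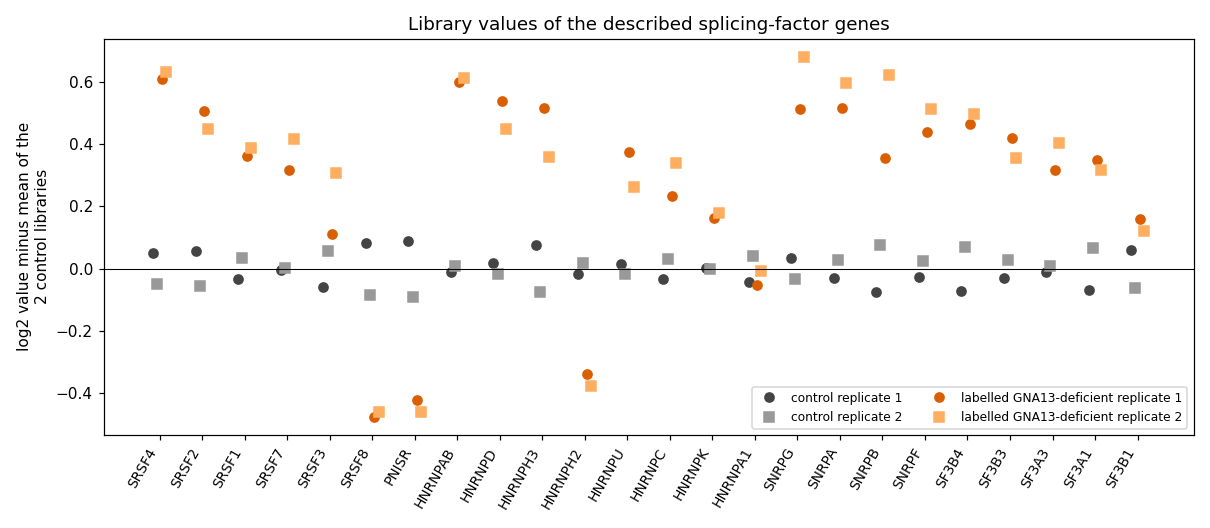
Log2 value of each of the 4 libraries minus the mean of the 2 control libraries, for 24 members, with controls in grey tones, libraries labelled GNA13-deficient in orange tones, circles for replicate 1 and squares for replicate 2. SRSF4, HNRNPAB, SNRPG and SF3B4 have both GNA13-deficient points above both control points, SRSF8, PNISR and HNRNPH2 have them lower, and HNRNPA1 has them overlapping.

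The SR and SFRS-named genes moved in both directions, with 5 higher (26.3%), 2 lower and 12 not passing, and a median of 0.19. The share that rose was near the 25% among genes with a mean log2 level of at least 10. The share that fell was below the 15.5% of that background. The SR and SFRS-named genes' share of mapped reads went from 0.401% and 0.367% to 0.442% and 0.434%, a ratio of 1.14. The 10 SR protein genes, whose products pair an RNA recognition motif with a tail rich in arginine and serine, held the 5 rises and 1 fall. The 9 other SFRS-named genes, whose products carry such tails or bind SR proteins without being SR proteins proper, held no rise and 1 fall, with a median of 0.12.

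SRSF4 (chromosome 1, 29474255 to 29508412, minus strand) had the largest rise of the 60 members. Its log2 levels were 11.43 and 11.34 in the controls, against 11.99 and 12.02, a difference of 0.62 (SE 0.06, adjusted p = 0.00306) and a ratio of 1.54. SRSF2, which binds exonic enhancers and is mutated in myeloid neoplasms, had 13.60 and 13.49 against 14.05 and 13.99, a difference of 0.48 (SE 0.07, adjusted p = 0.00929). SRSF1, the founding SR protein, had 14.34 and 14.41 against 14.74 and 14.76, a difference of 0.38 (SE 0.07, adjusted p = 0.0179). For all 3 the groups were apart by more than the spread between duplicates.

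SRSF7, an SR protein with a zinc knuckle that also takes part in mRNA export, had 13.23 in both control libraries against 13.55 and 13.65, a difference of 0.37 (SE 0.06, adjusted p = 0.0141). SRSF3, the smallest SR protein, had 14.23 and 14.34 against 14.40 and 14.59, a difference of 0.21 with an interval from -0.04 to 0.46 (adjusted p = 0.172). Its duplicates differed from each other nearly as much as the groups did. SRSF9 rose by 0.21 (adjusted p = 0.0453). SRSF6 and SRSF11 had differences of 0.22 and 0.13 (adjusted p = 0.0817 and 0.404).

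The falls among these genes were SRSF8 and PNISR. SRSF8, an intronless relative of SRSF2 (chromosome 11, 94800083 to 94804388, plus strand), had 11.44 and 11.27 in the control libraries against 10.88 and 10.90, a difference of -0.47 (SE 0.07, adjusted p = 0.0112), or 0.723 of the control level. PNISR, a nuclear protein with a serine- and arginine-rich stretch, had 10.20 and 10.02 against 9.69 and 9.65, a difference of -0.44 (SE 0.08, adjusted p = 0.0185). SRSF5 had 12.64 and 12.21 against 12.10 and 11.95, so its lowest control lay close above the other group. Its difference was -0.40 (adjusted p = 0.114). The control duplicates of SRSF5 were further apart than those of most SR genes.

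The other SFRS-named genes did not pass the threshold. SREK1, SUGP2, SFSWAP, SCAF4 and AKAP17A had differences of 0.39, 0.30, 0.19, 0.16 and 0.12, and SCAF11 had 0.01. CLASRP had -0.14 and SREK1IP1 had -0.42, the latter on 62 to 89 reads per library. SREK1 had a standard error of 0.16, more than double that of SRSF4, and it passed the threshold under some alternatives, among them the filter at the median level (adjusted p = 0.0269).

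Among the 21 hnRNP genes, 6 rose (28.6%), 1 fell (4.76%) and 14 did not pass. The share that rose was near that of genes with a mean log2 level of at least 10, where 25% were higher and 15.5% lower. The hnRNP median was 0.19, and 17 differences were above 0. The hnRNP genes took 1.59% and 1.497% of mapped reads in the control libraries and 1.76% and 1.67% in the others, a ratio of 1.11. HNRNPAB, a protein of the A/B group (chromosome 5, 177631534 to 177638164, plus strand), had log2 levels of 13.87 and 13.89 against 14.48 and 14.49, a difference of 0.61 (SE 0.06, adjusted p = 0.00372) with very close duplicates. HNRNPD, also called AUF1, binds AU-rich elements and governs mRNA decay, and had 14.32 and 14.28 against 14.84 and 14.75. Its difference was 0.49 (SE 0.07, adjusted p = 0.00932).

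The H and F group, which binds runs of G, divided between its members. HNRNPH3 had 12.73 and 12.58 against 13.18 and 13.02, a difference of 0.44 (SE 0.09, adjusted p = 0.0211), and HNRNPF rose by 0.31 (adjusted p = 0.0389). HNRNPH1, close to HNRNPF in reads, had 14.45 and 14.25 against 14.61 and 14.47, and its difference of 0.19 did not pass (adjusted p = 0.226). HNRNPH2, the X-linked relative of HNRNPH1 (chromosome X, 100663210 to 100669121, plus strand of GRCh37), went the other way. Its levels were 11.92 and 11.96 against 11.60 and 11.56, a difference of -0.36 (SE 0.05, adjusted p = 0.0087), or 0.781 of the control level.

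None of the 5 hnRNP genes with the most reads, not adjusted for length, passed the threshold. HNRNPA1, which competes with SR proteins at many exons, had 16.47 and 16.56 against 16.46 and 16.51, the highest levels of the members in every library. Its difference was -0.03, with an interval from -0.33 to 0.27. HNRNPA2B1, another member of the A/B group and next in reads, had 16.13 and 15.98 against 16.30 and 16.17, a difference of 0.18 (adjusted p = 0.311). HNRNPK, a poly(C)-binding protein, had 15.40 in both control libraries against 15.56 and 15.58, a difference of 0.17 with an interval from -0.04 to 0.38. HNRNPC, which binds runs of U and measures the length of nascent RNA, had 14.93 and 14.995 against 15.20 and 15.30, a difference of 0.29 (adjusted p = 0.0633). HNRNPU, a scaffold protein of the nucleus, had 15.17 and 15.14 against 15.53 and 15.42, a difference of 0.32 (adjusted p = 0.0517). Of these 5 genes only HNRNPA1 had groups that overlapped, and the groups of HNRNPA2B1 were 0.045 apart. In the main analysis the adjusted p values of all 5 missed the threshold. HNRNPC and HNRNPU passed it under some alternatives, among them the filter at the median level (limma adjusted p = 0.02 and 0.0135). They did not pass without the filter on low values (adjusted p = 0.237 for both).

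HNRNPUL1 and HNRNPL rose by 0.29 and 0.27 (adjusted p = 0.0218 and 0.0356). HNRNPA3, HNRNPM, HNRNPUL2, HNRNPA0 and HNRNPR had differences of 0.28, 0.26, 0.12, 0.04 and 0.002 and did not pass. The listed HNRNPA3P1, HNRNPA1L2 and HNRNPCL1 are copies of other hnRNP genes made by retrotransposition or duplication, and none passed. Their transcripts share 50-base words with the parent gene, in 13.7% of the words of HNRNPA3P1 with HNRNPA3, in 48.7% of those of HNRNPA1L2 with HNRNPA1 and in 3.04% of those of HNRNPCL1 with HNRNPC, so their reads may be assigned uncertainly. HNRNPA3P1 had 8.80 and 8.01 against 8.96 and 8.18, a spread between duplicates that was larger than the difference of 0.17.

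Related members were set against each other within each library, which removes the scaling of the library. The 9 pairs computed, and the 4 given in full, were chosen after their values had been seen, so they are a description without a test, and both members passed the threshold only in the pair of SRSF2 and SRSF8. The log2 ratio of SRSF2 to SRSF8 was 2.16 and 2.22 in the controls, against 3.17 and 3.10 in the other group, a change of 0.94. That of SRSF4 to SRSF5 was -1.21 and -0.88 against -0.10 and 0.07, a change of 1.02. That of HNRNPH1 to HNRNPH2 was 2.52 and 2.29 against 3.01 and 2.90, a change of 0.55. The ratio of the U1 proteins SNRPA to SNRPC was 0.55 and 0.54 against 1.21 and 1.12, a change of 0.62. In these 4 pairs the groups did not overlap. Of the 5 other pairs, the ratios of HNRNPA1 to HNRNPA1L2 and of HNRNPA3 to HNRNPA3P1 overlapped between the groups, with changes of 0.16 and 0.11. SRSF8 shared none of its 4303 words of 50 bases with SRSF2, and HNRNPH2 shared 1 of 2247 with HNRNPH1.

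**Figure D4:**
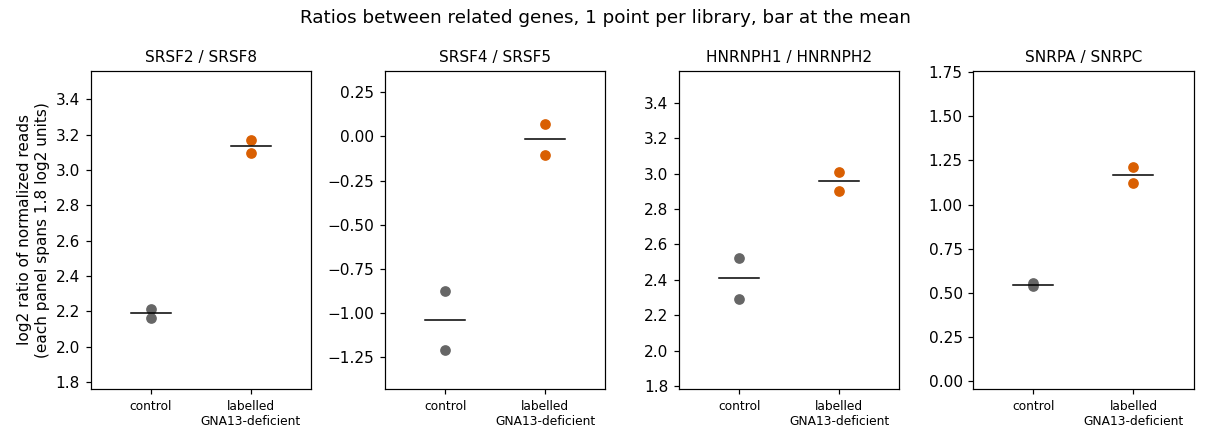
Log2 ratio of 4 pairs of related members in each of the 4 libraries, with a point per library, a bar at the mean of each group and panels that span equal ranges. The ratio is higher in both libraries labelled GNA13-deficient in every pair, by 0.94 for SRSF2 to SRSF8 and by 1.02 for SRSF4 to SRSF5.

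Many splicing factor genes are counted among targets of the transcription factor MYC. From general knowledge, 20 members are held in the commonly used hallmark set of such targets. Of these, 11 rose (55%) and none fell, with a median difference of 0.33. Of the other 40 members, 12 rose (30%) and 3 fell (7.5%), with a median of 0.17. Among genes with a mean log2 level of at least 10, 25% were higher and 15.5% lower. Among all genes tested the shares were 13.1% and 16.6%. The share of rises in the 40 members was thus near that of abundant genes. No test compared these groups, and a part of MYC in the differences was not tested. MYC with its partner MAX binds the E-box letters CACGTG, which read the same on both strands. These letters were looked for in the 300 bases around each gene's RefSeq start (GRCh38.p14), where 53 of 60 members had a window. They stood in 9 of the 53 (17.0%), against 1150 of 11662 windows of tested genes (9.86%) and 2030 of 27305 windows in all. The members that rose held them in 3 of 20 windows (15%) and the remaining members in 6 of 33 (18.2%). The E2F core letters TTTCGCGC or TTTGGCGC, on either strand, stood in 1 member window (1.89%) and in 2.02% of windows of tested genes.

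To show where the E-box lies in members that rose, fell or did not pass, stretches of 5 of these windows are printed 5′ to 3′ along the gene's own strand, with the E-box and E2F letters in capitals. HNRNPD (minus strand, chr4:82373992-82374060) and HNRNPH3 (plus strand, chr10:68331601-68331690) rose. HNRNPH2 (plus strand, chrX:101408138-101408221), with the letters at 2 places, and PNISR (minus strand, chr6:99425355-99425444) fell. SF3B1 (minus strand, chr2:197435089-197435178), which holds both motifs, did not pass.
HNRNPD: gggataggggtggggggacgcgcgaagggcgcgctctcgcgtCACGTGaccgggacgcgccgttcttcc
HNRNPH3: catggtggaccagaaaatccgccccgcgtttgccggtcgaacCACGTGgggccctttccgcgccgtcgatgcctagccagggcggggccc
HNRNPH2: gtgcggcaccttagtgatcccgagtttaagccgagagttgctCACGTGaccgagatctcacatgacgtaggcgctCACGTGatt
PNISR: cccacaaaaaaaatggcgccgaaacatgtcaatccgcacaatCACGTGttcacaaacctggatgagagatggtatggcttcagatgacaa
SF3B1: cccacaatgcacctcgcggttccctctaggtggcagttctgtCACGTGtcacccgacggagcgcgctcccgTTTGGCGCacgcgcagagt
A match is a description of the letters and not of a bound site, and here it stood beside genes of each outcome.

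The remaining parts of the splicing machinery were read from lists of other genes. The U1 and U2 auxiliary proteins had 8 of 23 higher (34.8%) and none lower, with a median difference of 0.19. PHF5A, a small subunit of SF3B under another name, had 10.64 and 10.63 against 11.16 and 11.32, a difference of 0.60 (adjusted p = 0.00527). LUC7L, a U1-associated factor, and HTATSF1, which binds SF3B1, rose by 0.71 and 0.66. The U4/U6.U5 tri-snRNP and LSm proteins had 11 of 28 higher (39.3%) and none lower, with a median of 0.24. Among them, PRPF31, USP39 and PRPF3 rose by 0.52, 0.51 and 0.49. The snRNP assembly factors had 3 of 16 higher (18.8%) and none lower, TGS1, GEMIN4 and GEMIN5, by 0.22 to 0.27. That share lay between the 13.1% of all genes tested and the 25% of genes with a mean log2 level of at least 10.

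Later-acting and regulatory factors held genes of both directions, and no test compared the lists. The Prp19 complex and step factors had 6 of 26 higher (23.1%) and 4 lower (15.4%), near the shares among genes with a mean log2 level of at least 10, with a median of 0.08. CDC40, a second-step factor, had 10.22 and 10.20 against 9.41 and 9.58, a difference of -0.71 (adjusted p = 0.00479). CRNKL1, a scaffold of the Prp19-associated complex, rose by 0.41, and the helicase DHX16 had a difference of -0.35. Among 24 SR-related proteins and SR kinases, 3 rose (12.5%) and 2 fell, near or below the shares among all genes tested, with TRA2B, an SR-like activator of exons, at 13.35 and 13.47 against 13.82 and 13.94 (adjusted p = 0.0128), and the kinases SRPK2 and CLK3 lower by differences of -0.46 and -0.40. The list of 31 hnRNP-like proteins had 11 higher (35.5%) and 3 lower, and held the largest fall of the splicing lists. RBFOX2, which binds the letters GCAUG and steers alternative exons, had 9.72 and 9.73 against 7.40 and 7.48, a difference of -2.29 (SE 0.09, adjusted p = 0.000802). PCBP4 had a difference of -0.88 and MBNL3 rose by 0.70. Of 10 minor spliceosome genes, 2 rose (20%) and 1 fell (10%). Those shares were no higher than the 25% and 15.5% among genes with a mean log2 level of at least 10. SNRNP35 had 8.55 and 8.64 against 7.98 and 8.11, a difference of -0.55, and SNRNP25 had 10.73 and 10.83 against 11.26 and 11.37, a difference of 0.54. ZCRB1 rose by 0.23 (adjusted p = 0.046).

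**Figure D5:**
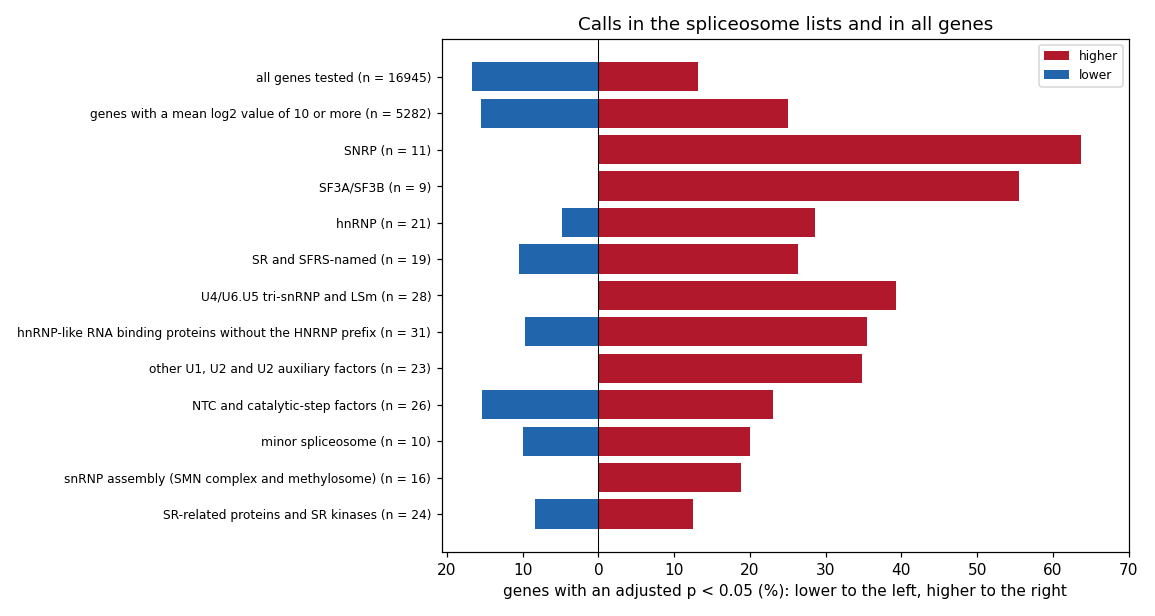
Percent of genes that passed the adjusted p threshold, higher to the right in red and lower to the left in blue, in all genes tested, in genes with a mean log2 level of at least 10, in the 4 member families and in the other lists of splicing genes. The SNRP, SF3A/SF3B, tri-snRNP, U1 and U2 auxiliary and snRNP assembly lists hold no lower genes. The remaining lists, the Prp19 (NTC) and hnRNP-like lists among them, hold genes of both directions.

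The calls rest on 4 libraries and 2 residual degrees of freedom. With any single library left out, no member passed the adjusted threshold, although 20 to 25 members had an unadjusted p under 0.05 and no member called with 4 libraries changed its sign. SRSF4, HNRNPAB, SNRPA and SNRPF passed under all 10 alternatives that used 4 libraries. The number of members called was lowest without the variance trend, with 5 higher and none lower, and without the filter on low values, with 6 higher and 1 lower.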

How the data were processed

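RNA was sequenced from NUDUL1 cells, in 2 control libraries and 2 libraries labelled GNA13-deficient. The authors made the libraries with a poly(A)-based stranded kit and aligned the reads to hg19 with STAR; HTSeq is in the submitters' processing notes, and its version, the annotation and the strand setting are not given in the sources used here. The deposited values are log2 of read counts divided by a constant per library, with 0 as the lowest value, and were used as they stand. The authors' row of mapped read totals is linear and was used only for depth and shares. Whole reads could be recovered from the values and were used for depth and as an alternative.

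Genotypes were compared by limma 3.58.1 (R 4.3.3), in which lmFit held a single term for genotype and eBayes used the trend option, on the 16945 genes above 0 in at least 2 of 4 libraries. The two-sided p values were adjusted by Benjamini and Hochberg's procedure over those genes, and the threshold was 0.05. A gene is written as rising or falling where it passed that threshold. No set test was made. The members and lists were chosen with earlier results of these data known.

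Members with each library's value were, in each family, up to 4 called genes with the largest absolute difference and at least 100 reads on average, together with SF3B1, SRSF1, SRSF2, SRSF3, SRSF7, HNRNPA1, HNRNPC, HNRNPK, HNRNPU and SNRPB. From each other list up to 3 called genes with the largest absolute difference were named. HNRNPH1, HNRNPA2B1, SRSF5, SNRPC, HNRNPA3P1 and SNURF were given library values after their results had been seen. Transcript words were taken from GENCODE transcripts on GRCh37 and promoter windows from RefSeq on GRCh38.p14. Alternatives were other filters, a pseudocount, quantile normalization, median centring, other variance priors, voom, a replicate block and leaving out each library. Scaling per mapped read was added after the data had been seen. The code was tested on simulated data.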

Additional observations from a re-analysis of the deposited data

How the results depend on the processing

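In the main analysis 23 members were higher and 3 lower, 5037 of all genes passed and the members' median was 0.21. The counts of members higher and lower were 6 and 1 without a filter (1999 of all genes), 5 and 0 without the variance trend (2718), 43 and 1 with median centring (6235) and 38 and 5 with the replicate block. Centring moved the higher calls over all genes from 2218 of 5037 to 4311 of 6235, and the median of all genes to 0.18. The median over members was 0.22 with the filter at the median level, 0.13 with quantile normalization, 0.42 with centring and 0.16 with scaling per mapped read, an alternative added after the data had been seen. When single libraries were left out, the medians ran from 0.21 to 0.26, 0 members were higher or lower and 0 of all genes passed (limma, 1 residual degree of freedom, the lone library assumed to vary like the other group), and 20 to 25 members had an unadjusted p under 0.05. Quantile normalization ended the calls of HNRNPF, HNRNPL, HNRNPUL1, SF3A1, SF3A2, SRSF9 and SNRPD1. Centring ended those of HNRNPH2 (-0.15, adjusted p = 0.107) and PNISR (-0.23, adjusted p = 0.0708). Scaling per mapped read ended those of HNRNPH3, HNRNPL and SRSF9. No called member changed sign. Among members not called, the difference changed sign with quantile normalization for HNRNPA0 (-0.13), HNRNPCL1 (0.28), HNRNPR (-0.13), HNRNPUL2 (-0.043), SF3B1 (-0.035), SF3B6 (-0.021), SF3B2 (-0.059) and SCAF11 (-0.10). It did so with centring for HNRNPA1 (0.18), HNRNPA1L2 (0.0135), HNRNPCL1 (0.0565), CLASRP (0.066) and SNRPC (0.15), and per mapped read for HNRNPA0 (-0.011), HNRNPR (-0.047), SF3B6 (-0.024) and SCAF11 (-0.037). Without one library, the sign was not fixed for HNRNPA1 (-0.0735 to 0.0115), HNRNPA3P1 (-0.23 to 0.56), HNRNPCL1 (-0.41 to 0.11), HNRNPR (-0.067 to 0.071), SF3B6 (-0.054 to 0.105), SRSF11 (-0.005 to 0.267), CLASRP (-0.315 to 0.031), SCAF11 (-0.13 to 0.15) and SNRPC (-0.147 to 0.022). The causes were not tested.

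The labels share replicate numbers, but no source pairs the libraries. Deviations of same-numbered libraries correlated at 0.453 over 8473 genes and 0.824 over the 60 members. With the replicate number as a block, 38 members were higher and 5 lower and 6616 of all genes passed.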

Other observations

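In several classes of members, most genes differed between the duplicates in the same direction in both genotypes. The classes given here were picked after their values had been seen. Of the 7 Sm ring genes, 6 were higher in replicate 2 than in replicate 1 in both genotypes and none was higher in replicate 1 in both. The U1-specific and the U2-specific SNRP genes, 2 of each, were also all higher in replicate 2 in both genotypes. Of the 9 SFRS-named genes other than SR proteins, 8 were higher in replicate 1 in both genotypes and none in replicate 2. HNRNPA3P1, HNRNPA1L2 and HNRNPCL1 were likewise higher in replicate 1 in both genotypes. Over the 60 members the count was 24 in each direction and 12 mixed. The SR protein genes were divided, with 3 higher in replicate 1, 4 in replicate 2 and 3 mixed. No test of this was made.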
